A study of Mus musculus with 6 samples.

Results

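The 10 genes described here are members of the Egf receptor family, their ligands and 1 inhibitor of the receptors, measured in bulge stem cells (bulge SCs) of the mouse hair follicle with and without integrin-linked kinase (ILK). They are the receptors Egfr, Erbb2 and Erbb3, the ligands Tgfa, Hbegf, Areg, Ereg, Btc and Epgn, and the inhibitor Lrig1. They were chosen by name and found by matching the Ensembl identifiers of the deposited tables to gene symbols, which gave 10 of the 43274 genes in the tables. All 10 were among the 16368 genes that were tested. Of the 10, 1 ligand (Tgfa) was called higher in ILK-K5 libraries and 2 ligands (Ereg and Btc) lower, at an adjusted p of at most 0.05 in limma. The shares over all tested genes were 2.93% higher and 0.599% lower. With 1 library left out, Tgfa and Ereg each kept the call in 1 of 6 fits and Btc in 2. No receptor passed the test in limma (0 of 3 at an unadjusted p under 0.05), edgeR or DESeq2.

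CD34+ bulge SCs with high levels of α6 integrin were isolated by FACS from epidermis of mice at postnatal day 21, and RNA-seq gave 3 control and 3 ILK-K5 libraries. Controls carried 1 deleted and 1 intact Ilk allele (Ilk fl/+ with K5-Cre, labelled ILK +/-), and ILK-K5 mice had both alleles deleted (Ilk fl/fl with K5-Cre, labelled ILK -/-). Both genotypes carried the K5-Cre transgene, in which the keratin 5 promoter drives Cre throughout the epidermis and hair follicles, on a mixed C57Bl6-129/Sv background, so the deletion was not limited to the sorted cells. The labels do not say whether the libraries came from separate animals, and p-values measure only the spread between these libraries.

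Egfr and its relatives are receptor tyrosine kinases that pair upon ligand binding, phosphorylate each other and activate the Ras-ERK cascade. Their ligands are made as membrane-bound precursors and are released by proteases of the Adam family. In skin, these ligands are produced largely by keratinocytes themselves and regulate proliferation, migration, wound closure and the hair cycle, and Lrig1, which promotes the degradation of the receptors, also marks stem cells of the upper hair follicle.

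The 6 libraries held 8228019 to 11969072 reads on genes, so that 1 read corresponded to 0.726 to 1.52 normalized counts. Mitochondrial genes took 11.5% to 27.6% of the reads and the 100 most abundant genes 37.4% to 54.3%. Control library 1 was the least correlated with the other libraries, with r across genes of 0.748 to 0.871 on log2 values. Calls of members and of other pathway genes that change without it are given, as are changed signs of members. Ilk itself was at 10.6, 16.7 and 38.5 normalized counts in controls 1 to 3, beside 14.8, 30.9 and 29.2 in ILK-K5 libraries 1 to 3. The groups overlapped (log2 fold change 0.30, SE 0.64, limma, Benjamini-Hochberg adjusted p = 0.933), and 89.7% of the Ilk exon bases lie under exons of Rrp8 or Taf10 on the opposite strand, so the level of this gene could not check the genotypes.

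Signs of other cell types moved with the genotype. Of the 14 macrophage markers, all were higher in ILK-K5, with a summed level of 106 to 182 normalized counts in control libraries and of 14798, 22301 and 16179 in ILK-K5 libraries 1 to 3. Their median log2 fold change was 7.04, or 6.64 with the 5 markers at the floor of 3 reads in the controls set to their bound, and 1 marker (Fcgr1) was at 0 in every control library. Markers of Langerhans and dendritic cells, of which macrophages also express H2-Aa, Itgax and Cd74, were called higher for 4 of 7 tested genes (Epcam, Itgax, H2-Aa and Cd74), with sums of 536 to 1361 in control and 12970 to 20654 in ILK-K5 libraries. T cell markers (1 of 5 tested called higher, Cd2) summed to 160 to 182 in control and 298 to 378 in ILK-K5 libraries, and fibroblast markers (1 of 4, Col3a1) to 703 to 779 and 1532 to 2493. The mast cell list had 1 tested gene (Kit, not called) with 3 of 7 genes at 0 in every control and 5 of 7 in every ILK-K5 library, and neither of the 2 tested endothelial genes was called. Among the 10 bulge SC markers, Cd34, the surface protein of the sort, was lower in ILK-K5 (1639 ± 599 against 430 ± 132 normalized counts, SD, n = 3, log2 fold change -1.90, limma, adjusted p = 0.0239) and no other passed the test, their sum being 73794 to 183107 in control and 53744 to 94597 in ILK-K5 libraries. None of the 4 junctional zone markers was called, though 3 had an unadjusted p under 0.05 in limma (12.3% of all tested genes). Their median log2 fold change was 0.97. Every ILK-K5 library lay above every control for 2 of them and below for 1 (10.9% and 6.95% of all tested genes). Of 8 tested markers of differentiated keratinocytes, 2 (Lor and Calml3) were called lower, with sums of 11086 to 24477 and 5500 to 8876. Of 5 tested melanocyte markers, 1 (Mitf) was called lower. The part of these cells in the levels described here was not tested, and in bulk samples fewer cells of a type and less RNA per cell cannot be told apart.

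**Figure D1:**
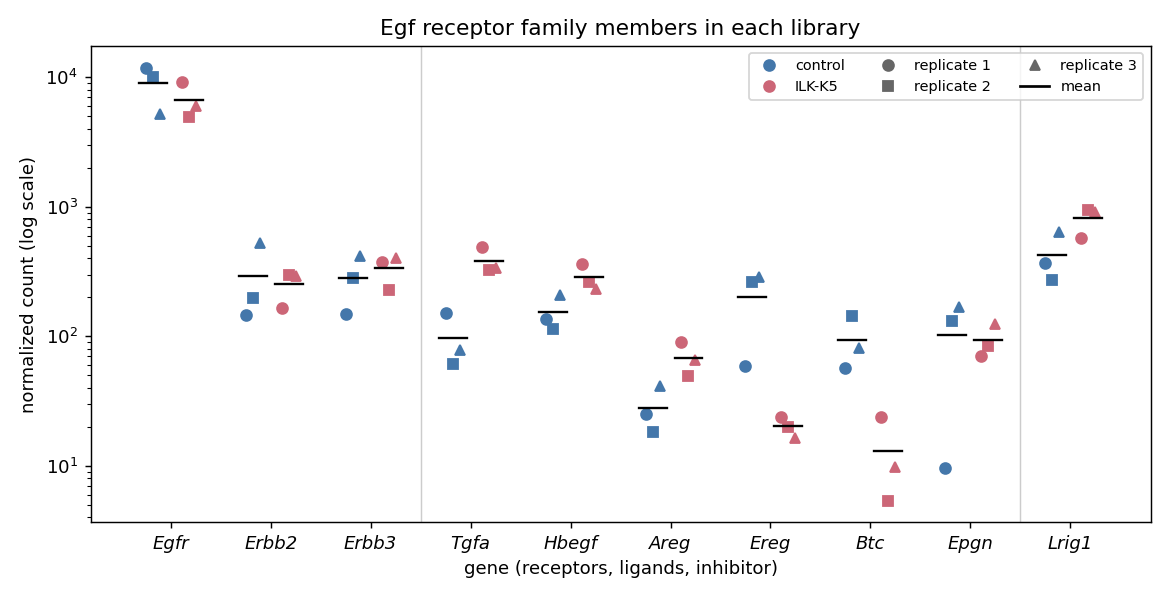
Normalized counts of the 10 genes in each library on a log axis, with control libraries in blue, ILK-K5 libraries in red, a marker shape for each replicate number and a black line at the mean of each genotype. Tgfa, Hbegf and Areg had all ILK-K5 libraries above all control libraries, Ereg and Btc had all ILK-K5 libraries below, and Egfr stood far above the other genes.

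Coordinates are given for the mouse assembly GRCm38. Of the 10 members, 7 had an entry in the RefSeq promoter table, and Ereg, Hbegf and Erbb3 did not. The 250 bases before the start of Tgfa, Areg and Btc are shown because these ligands stood on both sides of the comparison, Tgfa and Areg with every ILK-K5 library above the controls and Btc with every one below. Capitals mark matches on either strand to the motifs searched, AP-1 (TGACTCA), CRE (TGACGTCA), TATA box (TATAAA), the CCAAT box (spelled by its name) and GC box (GGGCGG).
Tgfa, chr6:86194972-86195221, plus strand: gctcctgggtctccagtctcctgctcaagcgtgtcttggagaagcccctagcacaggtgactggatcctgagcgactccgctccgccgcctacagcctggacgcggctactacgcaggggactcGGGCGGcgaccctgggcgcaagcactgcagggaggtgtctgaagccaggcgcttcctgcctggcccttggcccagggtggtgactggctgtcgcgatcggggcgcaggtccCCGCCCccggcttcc
Areg, chr5:91139349-91139598, plus strand: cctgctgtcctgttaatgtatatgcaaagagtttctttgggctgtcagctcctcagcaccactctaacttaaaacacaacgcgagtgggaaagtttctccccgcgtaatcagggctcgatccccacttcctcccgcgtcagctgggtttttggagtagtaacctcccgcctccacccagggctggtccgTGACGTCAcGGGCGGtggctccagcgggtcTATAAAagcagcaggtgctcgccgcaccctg
Btc, chr5:91402995-91403244, minus strand: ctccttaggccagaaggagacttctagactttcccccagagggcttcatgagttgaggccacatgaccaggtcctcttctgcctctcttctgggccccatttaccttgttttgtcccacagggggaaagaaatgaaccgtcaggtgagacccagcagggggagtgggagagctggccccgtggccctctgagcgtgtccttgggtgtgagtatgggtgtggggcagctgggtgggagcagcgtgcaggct
Areg had a CRE starting 61 bases before its start, a GC box at 52 and a TATA box at 31. Tgfa had GC boxes at 126 and, as its reverse complement, at 15, and Btc had no match. Upstream windows of the same length held a CRE in 1.55% of 32851 promoters, AP-1 in 4.46%, a TATA box in 12.4%, a GC box in 32.7% and a CCAAT box in 33.8%. G and C made up 69.2% of the Tgfa window, 57.2% of the Areg window and 59.6% of the Btc window. A match of letters describes the sequence only.

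Egfr (ENSMUSG00000020122, chr11:16752203-16918158) was by far the most abundant member in every library. Control libraries 1 to 3 held 11870.0, 9979.5 and 5244.7 normalized counts of it, and ILK-K5 libraries 1 to 3 held 9161.3, 4896.0 and 5961.4, from 6120 to 12303 reads. Control libraries 1 and 2 were the highest and ILK-K5 library 2 the lowest, but control library 3 lay among the ILK-K5 values, so the groups overlapped. The means were 9031 ± 3413 in control and 6673 ± 2220 in ILK-K5 cells (SD, n = 3), and the log2 fold change of -0.41 (95% interval -1.29 to 0.48) was within the spread between libraries (limma, adjusted p = 0.817).

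Erbb2 (ENSMUSG00000062312, chr11:98412470-98437716) binds no ligand of its own and signals as a partner of the other receptors. It was at 145.7, 199.2 and 527.5 normalized counts in control and 166.2, 296.9 and 293.2 in ILK-K5 libraries. Control library 3 was the highest of all and the other libraries ran together, with a log2 fold change of -0.03 (95% interval -1.12 to 1.06, limma, adjusted p = 0.994). Its sign turned without control library 3, where it was 0.51.

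Erbb3 (ENSMUSG00000018166, chr10:128567523-128589652) has a weak kinase of its own and binds neuregulins. Its levels were 148.6, 284.3 and 417.9 normalized counts in control and 375.7, 229.1 and 403.3 in ILK-K5 libraries, with the lowest and the highest value both in controls. The log2 fold change of 0.32 (95% interval -0.62 to 1.26) did not pass the test (limma, adjusted p = 0.878), and it was -0.079 without control library 1. Expressed in FPKM, which divides by gene length and allows genes to be compared, Egfr made up 73.1% to 95.2% of the summed level of the 3 receptors in control libraries and 81.0% to 89.6% in ILK-K5 libraries.

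The ligands did not move together: of the 6, 1 was called higher in ILK-K5 and 2 were called lower. Over all tested genes, 2.93% were called higher, 0.599% lower and 3.53% in either direction. All 3 ILK-K5 libraries lay above all 3 controls for Tgfa, Hbegf and Areg (10.9% of all genes tested) and below them for Ereg and Btc (6.95% of all genes tested). An unadjusted p under 0.05 was reached by 6 of the 10 members (Tgfa, Hbegf, Areg, Ereg, Btc and Lrig1) and by 2011 of all tested genes (12.3%). The median log2 fold change of the 10 members was 0.44, beside 0.0054 over all tested genes.

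**Figure D2:**
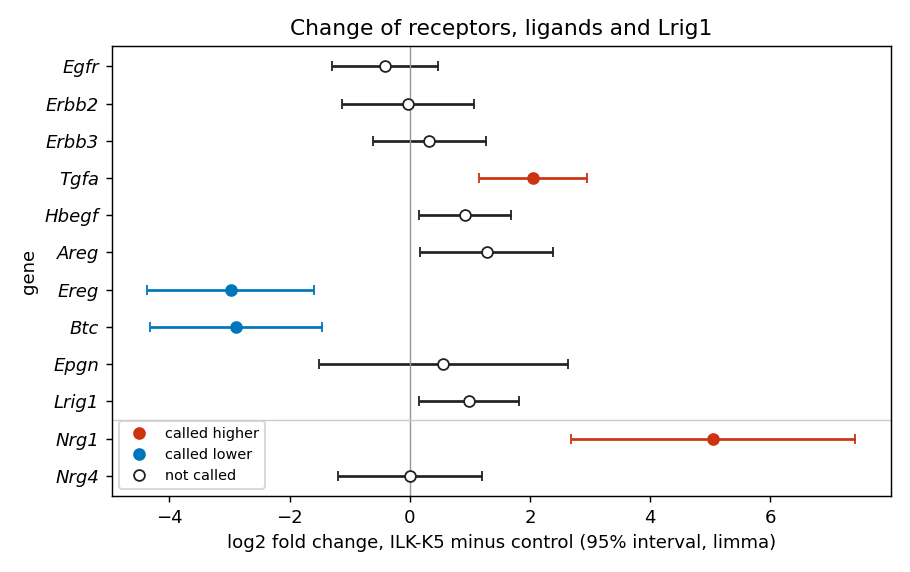
Fitted log2 fold change, ILK-K5 minus control, of the 10 genes and of Nrg1 and Nrg4, with 95% intervals from limma, filled in red when called higher, filled in blue when called lower and open when not called. The intervals of the 3 receptors, Epgn and Nrg4 span 0, while Ereg and Btc lie at -2.98 and -2.89 and Tgfa at 2.05.

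Tgfa (ENSMUSG00000029999, chr6:86195223-86275719) encodes transforming growth factor α, a ligand of Egfr that keratinocytes make and whose loss in mice gives wavy hair. It was at 152.4, 60.8 and 79.1 normalized counts in controls 1 to 3, beside 493.0, 325.5 and 334.1 in ILK-K5 libraries 1 to 3. The lowest ILK-K5 library was above the highest control, control library 1. Tgfa thus rose 4.14-fold in the fit, from a mean of 97.5 ± 48.5 to 384 ± 94.3 (SD, n = 3, log2 fold change 2.05, SE 0.40, 95% interval 1.16 to 2.94, limma, adjusted p = 0.0226). With 1 library left out the log2 fold change stayed between 1.77 and 2.43, but Tgfa was called in 1 of these 6 fits, without control library 1 (adjusted p = 0.0055), and had adjusted p-values of 0.0503 to 0.0950 in the others.

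Hbegf (ENSMUSG00000024486, chr18:36504927-36515805) encodes heparin-binding Egf-like growth factor, which is induced in wounded keratinocytes and is also made by macrophages. It was at 137.0, 114.0 and 209.0 normalized counts in control libraries and 364.3, 264.5 and 231.8 in ILK-K5 libraries. ILK-K5 library 1 was the highest, and ILK-K5 library 3 lay just above control library 3. The means were 153 ± 49.5 and 287 ± 69.0, with a log2 fold change of 0.92 (SE 0.34, 95% interval 0.15 to 1.69), which did not pass the test over all genes (limma, adjusted p = 0.270).

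Areg (ENSMUSG00000029378, chr5:91139599-91148432) encodes amphiregulin, an Egfr ligand of keratinocytes and of several immune cells. Its levels were low, at 25.1, 18.2 and 41.4 normalized counts in control and 91.1, 49.4 and 65.3 in ILK-K5 libraries, from 12 to 80 reads. The groups did not overlap, with 41.4 in control library 3 and 49.4 in ILK-K5 library 2 as the nearest values. The log2 fold change was 1.28 (SE 0.49, 95% interval 0.18 to 2.39) and did not pass the test (limma, adjusted p = 0.287).

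Within the ILK-K5 genotype, Tgfa, Hbegf and Areg were each highest in library 1. In libraries 1 to 3 the summed normalized counts were 14798, 22301 and 16179 for macrophage markers, 14117, 20654 and 12970 for Langerhans and dendritic cell markers and 2493, 1875 and 1532 for fibroblast markers. The marker sums thus differed in order. Library 1 was also the highest ILK-K5 library for Egfr (9161, 4896 and 5961) and for the summed junctional zone markers (3151, 2578 and 2586). The fibroblast marker sum was highest in library 1 as well. The part of any of these cells in the ligand levels was not tested.

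Ereg (ENSMUSG00000029377, chr5:91074622-91093646) encodes epiregulin, which activates Egfr and Erbb4. It was at 58.9, 263.1 and 285.2 normalized counts in control libraries and 23.9, 20.1 and 16.6 in ILK-K5 libraries, from 61, 173 and 393 reads and 21, 26 and 17 reads. The ILK-K5 libraries were all low and close to each other, and control library 1 lay between them and the other two controls. The mean was 202 ± 125 in control and 20.2 ± 3.68 in ILK-K5 cells, a 7.89-fold fall in the fit (log2 fold change -2.98, SE 0.62, 95% interval -4.37 to -1.59, limma, adjusted p = 0.0312). Without control library 1 the log2 fold change was -3.71 (adjusted p = 0.0018), and without any other single library Ereg was not called (adjusted p = 0.0709 to 0.171).

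Btc (ENSMUSG00000082361, chr5:91357261-91402994) encodes betacellulin, which also activates both receptors. Its levels were 56.9, 144.5 and 82.0 normalized counts in control and 23.9, 5.4 and 9.7 in ILK-K5 libraries, with as few as 7 reads in ILK-K5 library 2. The lowest control, library 1, was above the highest ILK-K5 library, library 1 of that genotype. Btc fell 7.42-fold in the fit, from 94.5 ± 45.1 to 13.0 ± 9.68 (log2 fold change -2.89, SE 0.64, 95% interval -4.33 to -1.46, limma, adjusted p = 0.0409). It was also called without control library 1 (-3.20, adjusted p = 0.0406) and without ILK-K5 library 1 (-3.42, adjusted p = 0.0290), and not without any of the other 4 (adjusted p = 0.0789 to 0.198).

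Epgn (ENSMUSG00000035020, chr5:91027464-91035215) encodes epigen, a low-affinity ligand of Egfr. Of the 10 genes it varied most between control libraries, at 9.6, 130.8 and 169.1 normalized counts in control and 70.6, 84.8 and 123.7 in ILK-K5 libraries. Control library 1 held the lowest value and control library 3 the highest, so the ILK-K5 values lay within the range of the controls. The fitted log2 fold change was 0.56 (95% interval -1.52 to 2.64, limma, adjusted p = 0.907) although the mean was lower in ILK-K5 (103 ± 83.2 against 93.0 ± 27.5), and without control library 1 it was -0.71. No direction can be given for Epgn.

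Lrig1 (ENSMUSG00000030029, chr6:94604529-94700158) was at 365.7, 272.2 and 641.4 normalized counts in control libraries and 576.1, 947.1 and 918.6 in ILK-K5 libraries. ILK-K5 library 1 lay below control library 3, and the other ILK-K5 libraries were above every control. The log2 fold change of 0.99 (SE 0.37, 95% interval 0.16 to 1.82) missed the threshold over all genes (limma, adjusted p = 0.270). Its exons share 2.58% of their bases with another gene, and those of Ereg, Tgfa and Erbb2 share 3.42%, 1.82% and 0.173%.

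**Figure D3:**
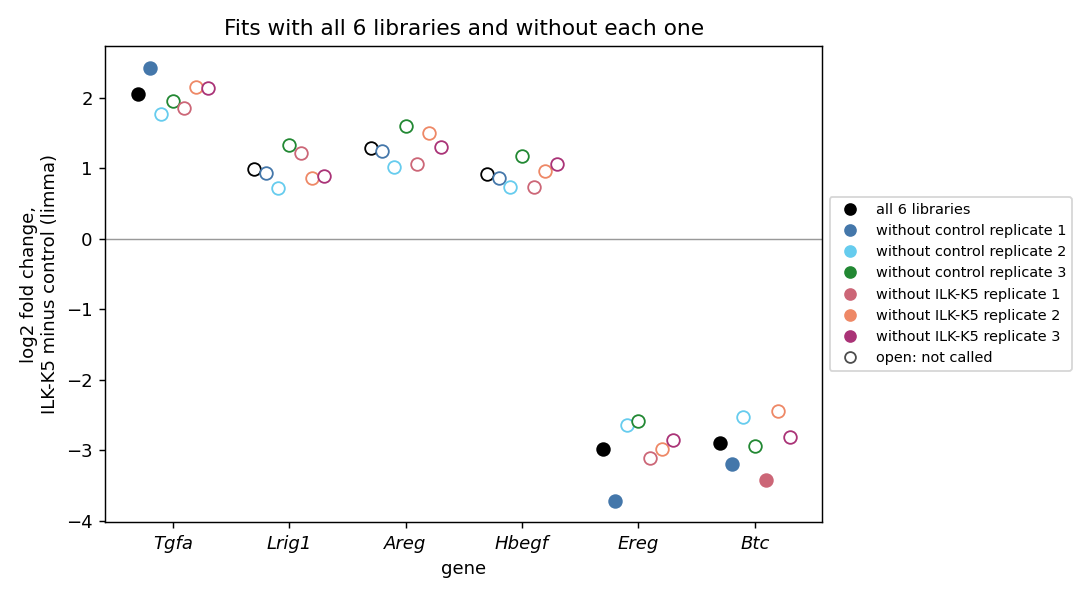
Log2 fold change, ILK-K5 minus control, of Tgfa, Lrig1, Areg, Hbegf, Ereg and Btc in the fit of all 6 libraries (black) and in the 6 fits that leave out 1 library each (colours), filled when called and open when not. Every point of Tgfa, Lrig1, Areg and Hbegf lies above 0 and every point of Ereg and Btc below, while few points are filled when a library is left out.

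Epgn, Ereg, Areg and Btc lie next to each other on chromosome 5. From Epgn to Ereg there are 39.4 kb and from Ereg to Areg 46.0 kb, with no annotated gene between them. Btc follows after 209 kb, across which 2 non-coding genes and no protein-coding gene are annotated. Along the cluster the log2 fold changes were thus 0.56 for Epgn, -2.98 for Ereg, 1.28 for Areg and -2.89 for Btc. Areg, with every ILK-K5 library above the controls though not called, stands between both ligands that fell.

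Levels of different genes were compared in FPKM. In control cells Egfr was highest, at 81.8 ± 30.9 FPKM (SD, n = 3), followed by Lrig1 (7.83), Hbegf (6.63), Epgn (6.01), Erbb2 (5.72), Ereg (5.02), Erbb3 (4.83), Btc (3.37), Areg (2.41) and Tgfa (1.16). Only Egfr was separated from its neighbour in that order, and each of the other neighbours overlapped between libraries. In ILK-K5 cells the order was Egfr (60.4 ± 20.1), Lrig1 (14.9), Hbegf (12.4), Areg (5.86), Erbb3 (5.73), Epgn (5.42), Erbb2 (4.96), Tgfa (4.57), Ereg (0.41 to 0.59 in the 3 libraries) and Btc (0.464). There Egfr and Lrig1, Hbegf and Areg, and Tgfa and Ereg did not overlap, and the other neighbours did. Tgfa, last by its mean in control cells, thus stood above Ereg and Btc in ILK-K5 cells. In control library 1, however, Tgfa was already above Ereg (1.81 against 1.46 FPKM).

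The summed FPKM of the 6 ligands did not separate the genotypes, at 13.9, 26.5 and 33.4 in control and 35.0, 25.2 and 27.5 in ILK-K5 libraries. Its composition is given for ligands grouped by their direction in these libraries, so a separation of the shares was largely built in. Ereg and Btc together made up 25.0%, 44.0% and 30.0% of the summed FPKM in controls 1 to 3, beside 4.13%, 2.74% and 2.75% in ILK-K5 libraries 1 to 3. Tgfa, Hbegf and Areg together made up 70.9%, 27.2% and 40.5% in control and 84.1%, 77.6% and 71.1% in ILK-K5 libraries, where the highest control, library 1, was within 1 percentage point of the lowest ILK-K5 library. Hbegf was the most abundant ligand in all 3 ILK-K5 libraries and in control library 1, and Epgn in control libraries 2 and 3. These shares are a description, since they rest on the same libraries as the tests above.

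**Figure D4:**
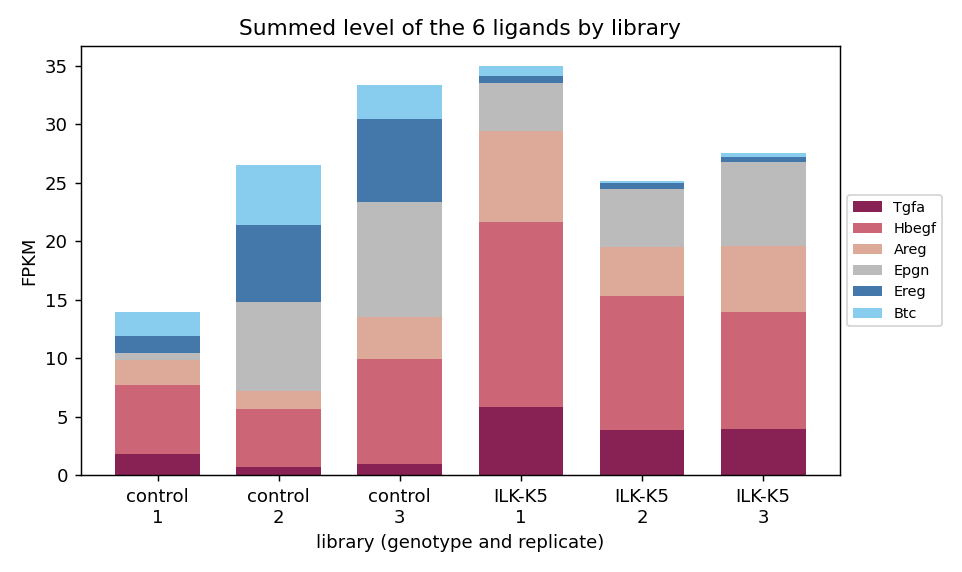
Level of the 6 ligands in FPKM, stacked for each library from 0, with 1 bar for each of the 3 control and 3 ILK-K5 libraries and a colour for each ligand. Ereg and Btc (blue) took 25.0% to 44.0% of the bar in control and 2.74% to 4.13% in ILK-K5 libraries, while the bar heights of both genotypes overlapped.

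Of the remaining receptor and ligands of the family, Nrg1, a neuregulin that binds Erbb3 and Erbb4, was called higher in ILK-K5. It was at 25.1, 0 and 10.2 normalized counts in control and 338.1, 209.8 and 147.1 in ILK-K5 libraries (26, 0 and 14 against 297, 272 and 151 reads). All ILK-K5 libraries were far above all controls, the highest again being library 1, with means of 11.7 ± 12.6 and 232 ± 97.4 (log2 fold change 5.05, SE 1.05, 95% interval 2.69 to 7.41, limma, adjusted p = 0.0315). With 1 control library at 0 its fitted fold depends on the pseudocount: at 0.1 the log2 fold change was 6.21 and the call was lost (adjusted p = 0.129). Nrg1 was called in 3 of the 6 fits without 1 library, and lost its call when ILK-K5 library 1, 2 or 3 was left out (adjusted p of at most 0.120). Nrg4, which binds Erbb4, was at 119.6, 65.4 and 39.9 against 118.4, 48.6 and 54.5, with overlapping groups and an interval of -1.20 to 1.20 for the log2 fold change. Erbb4, Egf, Nrg2 and Nrg3 had at most 8 reads in any library and were below the filter, too few to detect a difference.

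The lists of genes that release, dampen or relay the signal, with the other receptor and ligands, held 47 tested genes. Of these, 16 had every ILK-K5 library above every control (10.9% of all genes tested) and none had every one below (6.95% of all genes tested). Of the 7 tested sheddases and their iRhom partners, none was called with all 6 libraries in limma (0 at an unadjusted p under 0.05), edgeR or DESeq2, with a median log2 fold change of 0.44. Adam12 was at 76.2, 3.0 and 10.2 normalized counts in control and 77.4, 47.0 and 44.8 in ILK-K5 libraries (log2 fold change 1.88, limma, adjusted p = 0.519). Without control library 1 Adam12 was called (3.05, limma, adjusted p = 0.0382), and in no other fit without 1 library. Adam17, the main protease for Tgfa, Areg, Hbegf and Ereg, was at 919 against 1008 normalized counts (log2 fold change 0.15, limma, adjusted p = 0.909), and Adam10, the main protease for Btc and Egf, at 384 against 521 (0.44, adjusted p = 0.601). Of the 10 other receptor inhibitors 1 was called, with a median of 0.20. This was Ptpn1, a phosphatase that acts on Egfr, which rose from 176 ± 24.4 to 432 ± 85.5 normalized counts (1.28, SE 0.29, limma, adjusted p = 0.0434). It was called in 1 of the 6 fits without 1 library, that without control library 3 (limma, adjusted p = 0.0479, at most 0.203 in the others). Of the 12 alternatives that did not leave out a single library, Ptpn1 was called in 6. The receptor phosphatase Ptprk (-0.29, adjusted p = 0.820) and Errfi1, an inhibitor of the receptor kinase (0.25, adjusted p = 0.891), were not called.

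None of the 18 receptor adaptors and kinases passed the test in limma, edgeR or DESeq2, with a median log2 fold change of 0.25 and 2 genes at an unadjusted p under 0.05. Nras (0.27, limma, adjusted p = 0.848) and Mapk3 (0.39, adjusted p = 0.866) were examples with high FPKM. Of the 10 tested ERK feedback genes, which ERK signalling from many receptors induces, 1 was called, and the median was 0.98. In this list 6 genes had every ILK-K5 library above every control (10.9% of all tested genes). An unadjusted p under 0.05 in limma was reached by 4 (12.3% of all tested genes). Etv5, an Ets transcription factor, rose from 145 ± 58.0 to 716 ± 164 normalized counts (2.35, SE 0.36, adjusted p = 0.0075) and was called with each library left out in turn. Dusp6, a phosphatase of ERK, was at 192 ± 124 against 804 ± 481 and missed the threshold (2.08, SE 0.51, limma, adjusted p = 0.0638). It passed in 5 of 12 alternatives, which changed the filter, pseudocount, scaling, test or terms or kept replicates 2 and 3 only. Without control library 1 Dusp6 was called (log2 fold change 2.57, limma, adjusted p = 0.0151), and in no other fit without 1 library. Spred1 was at 0.44 (limma, adjusted p = 0.769). Of the 47 tested genes of the pathway outside the 10 members, 3 (Nrg1, Ptpn1 and Etv5) were called higher and none lower. Over all tested genes, 2.93% were called higher and 0.599% lower. The median log2 fold change was 0.34 over these 47 genes and 0.0054 over all tested genes.

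**Figure D5:**
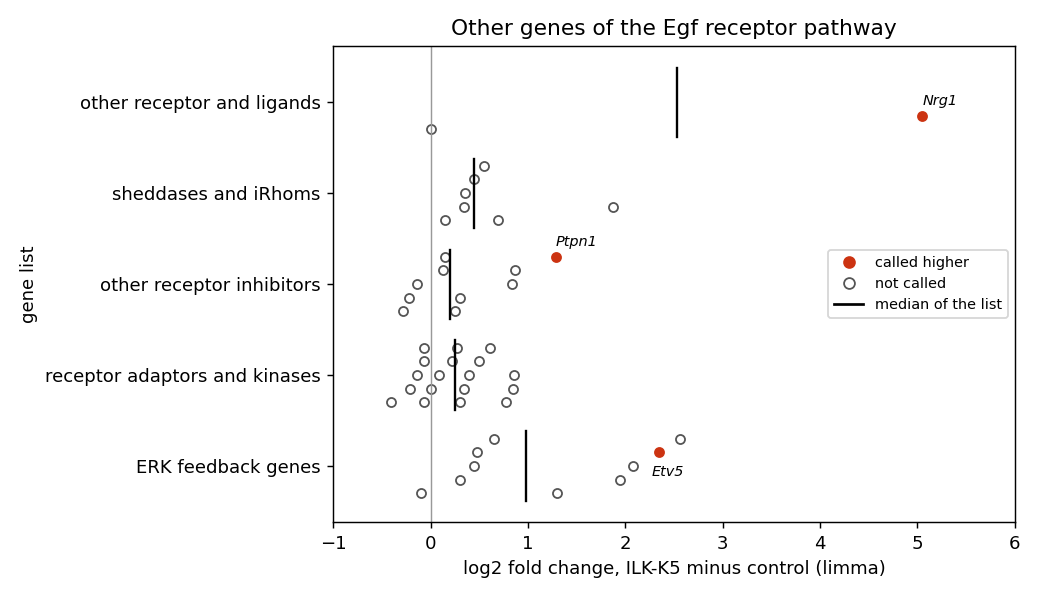
Fitted log2 fold change, ILK-K5 minus control, of each tested gene in 5 lists of the pathway outside the 10 members, filled in red when called, open when not, with a black line at the median of each list. Nrg1, Ptpn1 and Etv5 are called, the sheddases all lie above 0 without a call, and the ERK feedback genes have a median of 0.98.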

How the data were processed

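RNA of sorted bulge SCs was isolated with TRIzol LS, amplified, made into Nextera XT libraries and sequenced in read pairs. Per the paper and the submitters' processing notes, reads were trimmed, cleared of ribosomal RNA and aligned to GRCm38 with TopHat2 2.0.14 and Bowtie2 2.2.4; the counting program is not given in the sources used here. The deposited signal table holds normalized counts that the authors made with DESeq2 1.6.3. All values were whole multiples of the value of 1 read (tolerance 0.001), so whole reads were recovered. The deposited FPKM equal these counts times 1 constant per gene. Tables of the authors' own comparison (fold changes, p-values) were not used.

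Genotypes were compared with limma 3.58.1 (trend) in R 4.3.3 on log2(normalized count + 1) over 16368 genes averaging at least 10 normalized counts, two-sided, with Benjamini-Hochberg adjustment over all of them and a threshold of 0.05. Fold changes are on this scale, which understates those of low genes. edgeR 4.0.16 and DESeq2 1.42.0 on recovered reads, other filters, pseudocounts and scalings, and fits without single libraries were alternatives. With 3 against 3 libraries an exact permutation test of a single gene cannot go below 0.10, and none was run.

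Gene symbols (for 97.3% of genes) and coordinates came from GENCODE M21, promoters from RefSeq (GRCm38.p6). The members and gene lists were chosen with earlier results of these data known. Named genes were all members, Ilk, Nrg1 to Nrg4, Egf and Erbb4, and of each other pathway list the genes called and both genes with the highest mean FPKM; of marker lists, those called. Adam12, Kit and the neighbours of the ligand cluster were named after their values were seen. Strand use in counting is not given in the sources used here, so reads of overlapping genes may be shared.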

Additional observations from a re-analysis of the deposited data

How the results depend on the processing

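Tgfa, Hbegf, Areg and Lrig1 stayed above 0 and Ereg, Btc and Egfr below 0 in every alternative that was run. Over all tested genes 479 were called higher and 98 lower. These counts were 772 and 280 with DESeq2, 846 and 286 with a term for replicate 1 against replicates 2 and 3, and 848 and 269 with the replicate number as a block. Leaving out 1 library gave 222 to 559 genes called higher and 32 to 98 called lower, with 310 higher without control library 2 and 268, 222 and 245 without ILK-K5 libraries 1, 2 and 3. Of the members, 0 were called higher on FPKM, and 1 was called lower with a pseudocount of 0.1, a mean of at least 50, FPKM or edgeR; without 1 library 0 to 1 were called higher and 0 to 2 lower. On FPKM with a pseudocount of 0.1, the adjusted p in limma was 0.0533 for Tgfa and 0.0574 for Ereg. These FPKM carry the same scaling between libraries as the normalized counts. For Btc the adjusted p was 0.0556 with normalized counts and a pseudocount of 0.1, 0.0685 with the stricter filter (both limma) and 0.0579 with edgeR. Hbegf, Areg and Lrig1 were called in no alternative, with lowest adjusted p-values of 0.123, 0.136 and 0.0716. Other pathway genes called higher numbered 1 with a pseudocount of 0.1, 5 with DESeq2, 5 with the term for replicate 1 and 6 with the replicate block, and 1 to 4 without 1 library, with 0 called lower in each (0 to 0). Marker genes called numbered 16 to 22 higher and 1 to 5 lower without 1 library, and 2 lower with replicates 2 and 3 only. The direction turned for Erbb2 when control library 3 (0.51) or ILK-K5 library 1 (0.25) was left out, with a range of -0.41 to 0.51 over the fits without 1 library, for Erbb3 without control library 1 (-0.079; range -0.079 to 0.66) and with replicates 2 and 3 only (-0.18), and for Epgn with edgeR (-0.16), DESeq2 (-0.16), without control library 1 (-0.71; range -0.71 to 1.29) and with replicates 2 and 3 only (-0.53). The cause was not tested. Libraries with the same number deviated together with r of 0.53, 0.020 and 0.31 across genes, and those with different numbers with r of -0.55 to 0.50. Control library 2 correlated best with ILK-K5 library 3 (0.074). With deviations taken over 3 libraries per genotype, these values cannot decide a pairing, and the numbers were not taken to pair the samples. With the replicate number as a block, Tgfa, Ereg and Btc were called (limma, adjusted p = 0.0012, 0.0056 and 0.0159). The sample descriptions carry the same numbers in both genotypes, and controls were littermates by the study's methods, but no source used here says what these numbers mean or which libraries share a litter, so a pairing by litter remains possible. Low read counts limit the precision for Btc, Areg, Nrg1, Ereg in ILK-K5 and Epgn in control library 1.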

Other observations

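Within 500 kb of the ligand cluster on chromosome 5, 12 genes were tested and 5 were called in limma, beside 3.53% of all tested genes. Ereg and Btc were called lower and the chemokine genes Pf4, Cxcl1 and Cxcl2 higher in ILK-K5. The window was drawn around the ligands, so the calls of Ereg and Btc were known beforehand. Mean normalized counts were 10.2 in control and 105 in ILK-K5 libraries for Cxcl1, and 3.95 and 329 for Cxcl2. Cxcl5, between Rassf6 and Pf4, was at 167 and 122 and was not called. Parm1, beyond Btc, was at 20.7 and 144 and was not called either (log2 fold change 2.67, limma, adjusted p = 0.0557). The chemokines are made by macrophages among other cells, and the part of the macrophage RNA in these values was not tested.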
